A study of Callithrix jacchus with 54 samples.

Results

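The genes described are 9 classical cadherins, CDH1, CDH2, CDH3, CDH4, CDH5, CDH6, CDH8, CDH10 and CDH11, taken by their symbols from the 14812 genes of the table. The set was chosen by the TPM of CDH2 and CDH8, whose gains were among the largest in marmoset primordial germ cell-like cells (cjPGCLCs), so the gain of these 2 genes in sorted cjPGCLCs over marmoset embryonic stem cells (cjESCs) or over unsorted differentiated cells is given as a description without a test. The same holds for CDH2 and CDH8 between any 2 of the groups used in that choice, which are the cjESCs, BLSE cells at 96 h and sorted cells at 96 h and day 6, and for CDH8 with SOX17 at 48 h. Where 1 group of a comparison entered the choice, its test is not wholly independent of it. All 9 genes were found and all 9 passed the filter on low values, which kept 11197 genes.

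The study followed the differentiation of the common marmoset ESC line CMES40 towards germ cells by mRNA sequencing of 54 libraries, 2 for each of 27 conditions. Every library came from this one line, which carries a tdTomato reporter of BLIMP1 and an eGFP reporter of NANOS3. Levels are relative transcript abundances (TPM), and differences are on the log2(TPM + 1) scale with standard errors and adjusted p values of limma, called at an adjusted p under 0.01. The replicates are described as biological duplicates. Each standard error and p value rests on the spread between duplicates pooled over all 27 conditions, not on that of the groups compared alone. An exact permutation test of 2 against 2 could not go below p = 0.33.

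Cells with the transgenes rtTA, tetO-BLIMP1, SOX17-GR and DD-TFAP2C were kept as cjESCs in the medium DK20FA. They were differentiated for 12, 24, 48 or 96 h with BMP4, LIF, SCF and EGF (BLSE), with BLSE and enforced SOX17 (SOX17 + BLSE), or with enforced SOX17 and the same factors except BMP4 (SOX17 + LSE). SOX17 fused to the glucocorticoid receptor part is switched on by dexamethasone, and since no source states that BLSE cells received that drug, SOX17 and dexamethasone cannot be told apart. Cells without transgenes were kept in the medium PESFA, treated for 24 h with IM12, an inhibitor of GSK3β, and activin A (pre-treated cells), and then given BLSE with the WNT pathway inhibitor IWR1 (BLSE + IWR1) or with IWR1 and BMS493, an inverse agonist of retinoic acid receptors (BLSE + IWR1 + BMS). All differentiation media held a Rock inhibitor. cjESCs and pre-treated cells were sorted as TRA-1-60(+), cells at 12 to 48 h and BLSE cells at 96 h were taken whole, and the other 96 h cells were sorted as tdTomato(+). The labels call these sorted cells cjPGCLCs in every route but SOX17 + LSE, where they are called differentiated cells. BLSE + IWR1 cjPGCLCs were also taken at day 6 and, after aggregation with mouse gonadal somatic cells (xrOvary), at day 20, 40 and 70, again as tdTomato(+) cells.

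Cadherins are calcium-dependent adhesion molecules whose extracellular repeats bind those of a neighbouring cell and whose cytoplasmic tail holds β-catenin and p120-catenin, with α-catenin as the link to actin. E-cadherin (CDH1) and P-cadherin (CDH3) mark epithelia, N-cadherin (CDH2) marks neural and mesenchymal cells and R-cadherin (CDH4) the retina and other tissues, while VE-cadherin (CDH5) joins endothelial cells. CDH6, CDH8, CDH10 and CDH11 belong to the type II cadherins, which sort cells in the nervous system, kidney and mesenchyme. In mouse embryos E-cadherin takes part in the formation and migration of primordial germ cells.

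The sums of TPM over the table ran from 790300 to 839203 per library, and TPM values keep no sequencing depth. Replicates correlated at 0.977 to 0.994, and 0 pairs of libraries were identical. The xrOvary day 20 library 2 stood apart with 10146 genes above 0, against 11441 to 12688 in all others. The 6 cjPGCLC marker genes (SOX17, PRDM1, TFAP2C, NANOS3, PDPN and KIT) summed to 2398 to 3377 TPM in the tdTomato(+) cells at 96 h and day 6. They summed to 256 and 289.6 TPM in BLSE cells at 96 h and to 674 to 839 TPM in cjESCs of both media. PRDM1, or BLIMP1, is the gene of the sorting reporter, and SOX17 was enforced in the SOX17 routes. The sum is thus partly set by the sort and the transgene. The markers of mesenchyme, 10 genes, summed to 4207 and 3588 TPM in PESFA cjESCs and to 3013 and 5499.6 TPM in pre-treated cells, against 613 and 1010.3 TPM in DK20FA cjESCs and 254 to 494 TPM in BLSE + IWR1 cells at 12 to 48 h. cjESCs grew on mouse feeder cells, and the part of other cells in these values was not tested.

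cjESCs in DK20FA held CDH3 at 408 and 348 TPM and CDH1 at 193 and 206 TPM. These 2 genes together made up 95.02% and 96.02% of the summed TPM of the 9 cadherins. CDH2 was at 6.12 and 4.48 TPM and CDH8 at 1.24 and 1.44 TPM, which together gave 1.17% and 1.03% of that sum. The make-up was opposite in sorted SOX17 + BLSE cjPGCLCs at 96 h, where CDH2 stood at 311 and 284 TPM and CDH8 at 156 and 154 TPM. CDH2 and CDH8 then made up 73.3% and 70.5% of the sum, and CDH1 and CDH3 21.8% and 24.2%. In unsorted BLSE cells at 96 h, CDH2 was at 0.53 and 0.77 TPM and CDH8 was listed at 0 in both libraries, while CDH1 and CDH3 kept 81.8% and 75.9% of the sum. The plot of the make-up by condition shows the same inversion in every tdTomato(+) condition but SOX17 + LSE, where CDH2 and CDH8 held 46.6% and 42.8%.

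**Figure D1:**
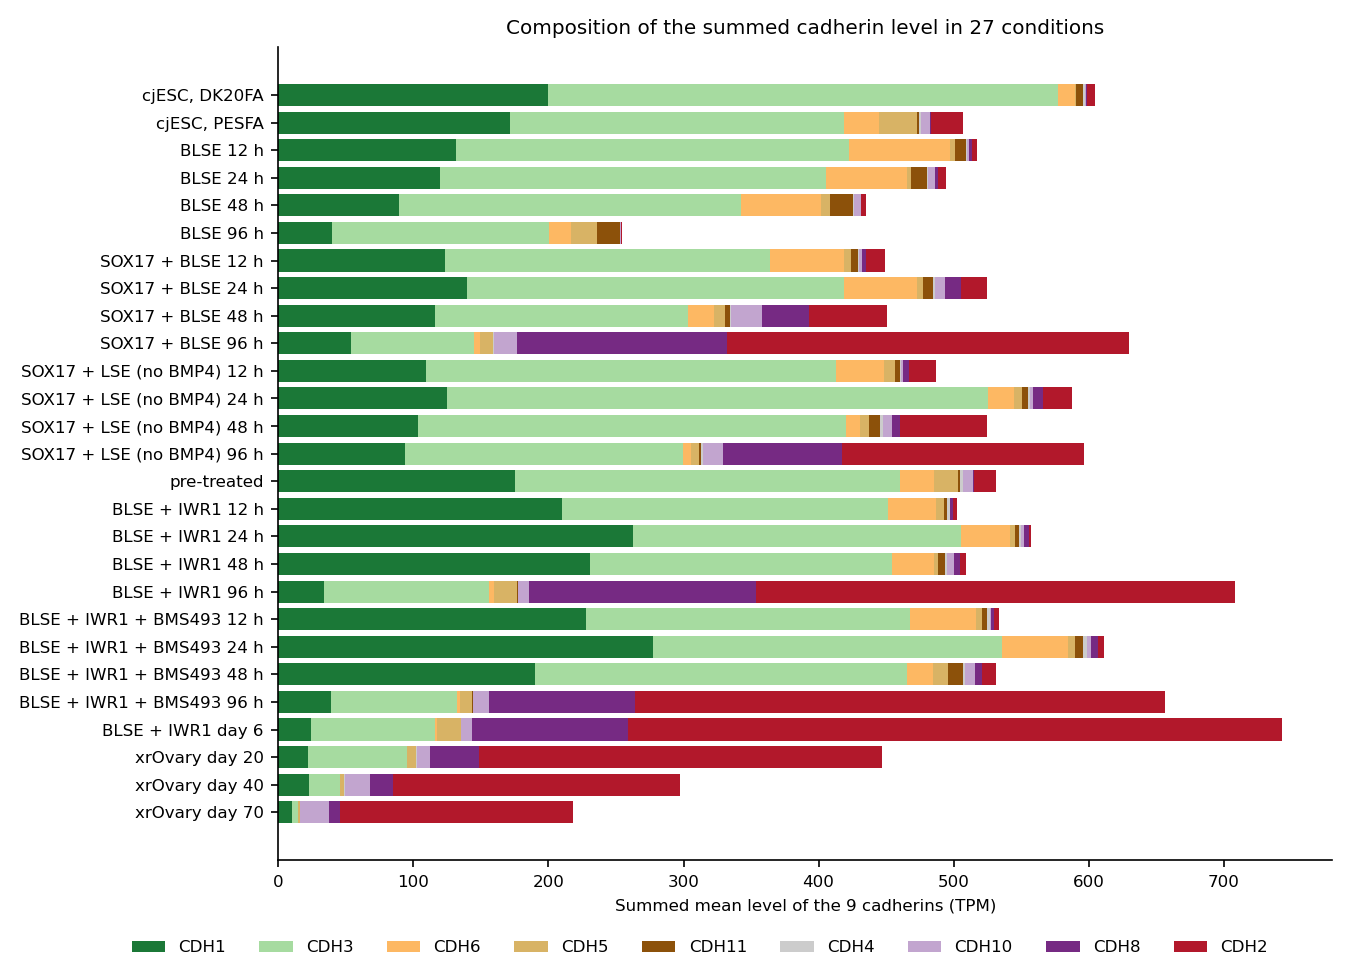
Stacked horizontal bars of the mean TPM of the 9 cadherins in each of the 27 conditions (2 libraries each). CDH1 and CDH3 fill most of the bar in cjESCs and in all unsorted cells, whereas CDH2 and CDH8 fill most of it in tdTomato(+) cells except SOX17 + LSE at 96 h.

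The gain of CDH2 in sorted cells over BLSE cells at 96 h was 7.50 on the log2 scale with SOX17 + BLSE, 6.77 with SOX17 + LSE, 7.76 with BLSE + IWR1 and 7.90 with BLSE + IWR1 + BMS. Over the cjESCs of the same route it was 5.58, 4.85, 3.88 and 4.02. CDH8 gained 6.06, 5.24, 6.60 and 5.96 over the cjESCs of the same route, and no fold against BLSE cells is given because CDH8 was listed at 0 there. The smaller gain of CDH2 in the IWR1 routes went with a higher start, since CDH2 was at 21.6 and 24.9 TPM in PESFA cjESCs. These gains chose the genes, and the sort of the cells differs in each of them.

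CDH1 and CDH3 were lower in sorted SOX17 + BLSE cjPGCLCs than in DK20FA cjESCs by description, at 43.7 and 63.8 TPM for CDH1 and 95.5 and 86.7 TPM for CDH3. CDH10 was at 14.4 and 20.8 TPM there against 1.06 and 0.62 TPM in the cjESCs. CDH11 was at 0.29 TPM and at 0, against 5.27 and 4.85 TPM in the cjESCs and 15.7 and 19.0 TPM in BLSE cells at 96 h. The sorted cells held 4 cadherins, CDH1, CDH2, CDH3 and CDH8, at 43.7 TPM or more in both libraries, and of these CDH1 and CDH3 had been so in the cjESCs.

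**Figure D2:**
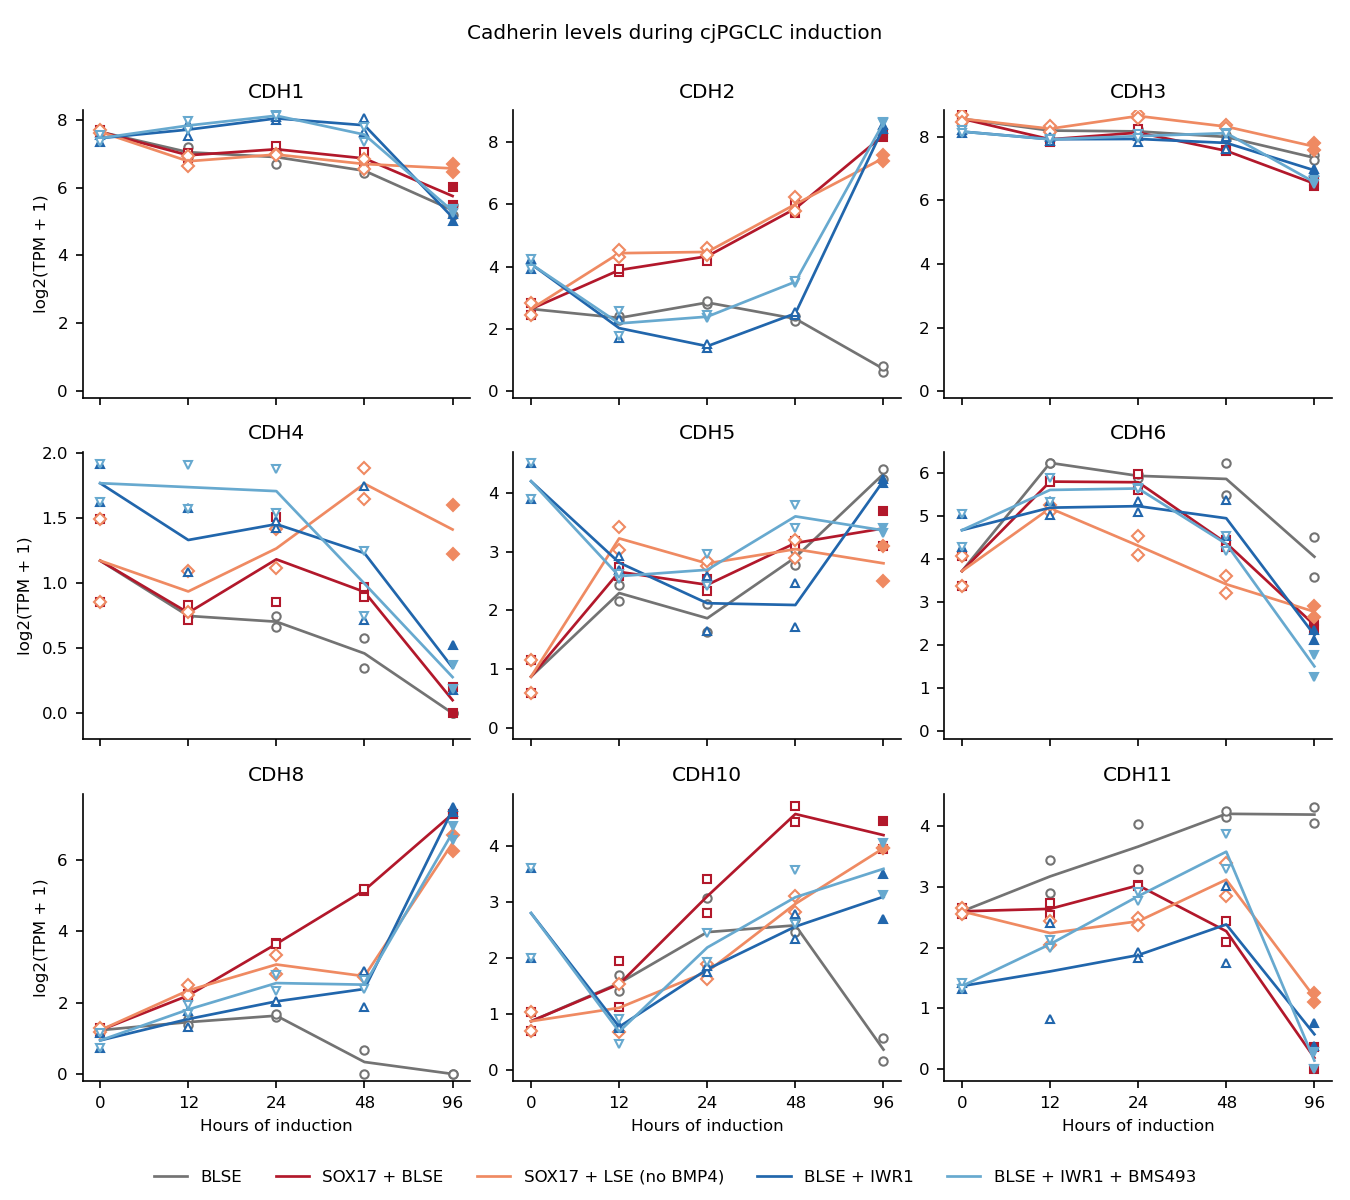
Levels of the 9 cadherins as log2(TPM + 1) against hours of differentiation (0, 12, 24, 48 and 96 h, spaced equally) along 5 routes, with 1 point per library, filled for sorted cells, and lines through the means of 2 libraries. CDH2 and CDH8 climb in steps with SOX17 + BLSE but stay low until 48 h and are high at 96 h in the IWR1 routes.

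The order of the 27 conditions by mean level differed from gene to gene. CDH1 was highest in BLSE + IWR1 + BMS cells at 24 h, at 279.9 and 275 TPM, and lowest in xrOvary cells of day 70, at 9.50 and 10.7 TPM. CDH3 was highest in SOX17 + LSE cells at 24 h, at 422 and 380.1 TPM, a range that overlapped that of DK20FA cjESCs. CDH2 was highest at day 6, at 476 and 492 TPM, and CDH8 in BLSE + IWR1 cjPGCLCs at 96 h, at 177 and 159 TPM. Neither overlapped the next condition in the order. Of the 26 neighbouring pairs of conditions, the libraries overlapped in 15 for CDH2, 15 for CDH8, 19 for CDH1, 18 for CDH3 and 19 for CDH6, so the middle of each order is not resolved by duplicates.

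The other 5 genes had lower ceilings. CDH6, a cadherin of the kidney and the nervous system, was highest in BLSE cells at 12 h with 73.7 and 74.6 TPM. CDH5 was highest in PESFA cjESCs with 29.2 and 27.7 TPM, and neither of these genes overlapped the next condition. CDH10 was highest in SOX17 + BLSE cells at 48 h with 20.6 and 25.2 TPM, and CDH11, a cadherin of mesenchyme and bone, in BLSE cells at 48 h with 16.9 and 18.1 TPM, both overlapping the next condition. CDH4 reached at most 2.77 TPM, and 25 of its 26 neighbouring pairs overlapped. Overlap was seen in 24 pairs for CDH5, 22 for CDH10 and 20 for CDH11.

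The comparison of the 2 starting populations asked how cadherins differ between cjESCs of the 2 media, which also differ in the transgenes. CDH5 was at 29.2 and 27.7 TPM in PESFA and at 1.21 and 0.51 TPM in DK20FA (log2 difference 4.01 ± 0.30 SE, n = 2 per group, adjusted p = 1.63e-12). CDH2 was at 21.6 and 24.9 against 6.12 and 4.48 TPM, a log2 difference of 1.95 that is a description because both groups entered the choice of CDH2. Both genes lay far apart between the media without overlap. CDH10 was higher too, at 8.64 and 5.13 against 1.06 and 0.62 TPM (2.07 ± 0.41, adjusted p = 0.000192), and CDH6 at 24.2 and 26.6 against 15.7 and 9.28 TPM (1.01 ± 0.29, adjusted p = 0.0083). CDH3 was lower in PESFA (-0.60 ± 0.13, adjusted p = 0.000782), as was CDH11 at 1.99 and 0.55 TPM (-1.49 ± 0.36, adjusted p = 0.00168). That made 3 genes higher and 2 lower of 7 tested, where 16.8% of all genes were called, with a median log2 difference of 0.30 over the 7 and -0.082 over all genes. CDH1, at 179 and 164 TPM in PESFA, differed by -0.22 (95% interval -0.59 to 0.16).

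Of these calls, CDH5 and CDH10 held with any library left out. CDH3 lost its call without DK20FA library 1 (adjusted p = 0.0327) or PESFA library 2 (0.0162), and CDH6 without DK20FA library 2 (log2 difference 0.66, adjusted p = 0.179) or PESFA library 1 or 2 (0.0266 and 0.0712). CDH11 lost it without PESFA library 2 (adjusted p = 0.1) or DK20FA library 1 or 2 (0.0202 and 0.0106). Of the 10 mesenchyme markers, 8 were higher in PESFA (median log2 difference 2.21), and COL1A1 was at 1598 and 878 TPM against 41.8 and 83.6 TPM. Of the 8 endothelial markers tested, 2 were higher, with sums over all 10 of 88.5 and 100.4 against 62.4 and 53.8 TPM. The part of either in CDH2 or CDH5 was not tested.

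After the 24 h with IM12 and activin A, CDH5 was at 21.7 and 13.9 TPM and CDH2 at 14.2 and 18.0 TPM. limma called 0 of 9 cadherins against PESFA cjESCs, where 0.304% of all genes were called, and 2 had an unadjusted p under 0.05. CDH10 was at 2.98 and 11.2 TPM, so these duplicates lay far apart.

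BLSE alone, where cells at 96 h were also unsorted and then held few cjPGCLC marker transcripts, was followed from DK20FA cjESCs. The number of cadherins called was 2 at 12 h, 3 at 24 h and 6 at 48 h of 9, and 5 at 96 h of 7 tested, where 7.41%, 11.7%, 19.8% and 29.5% of all genes were called. Over the cadherins tested the median log2 difference was 0.23, 0.41, -0.31 and -0.51, against -0.042, -0.056, -0.013 and -0.084 over all genes.

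The epithelial cadherins went down in steps. CDH1 was at 146 and 118 TPM at 12 h, 138 and 102 TPM at 24 h, 93.0 and 85.6 TPM at 48 h, and 35.5 and 43.6 TPM at 96 h. It was called from 24 h (-0.75 ± 0.19, adjusted p = 0.00341) and fell by 2.31 ± 0.19 at 96 h (adjusted p = 8.62e-13). CDH3 ended at 169.6 and 152 TPM (-1.23 ± 0.13, adjusted p = 1.69e-09). CDH2 stayed between 3.78 and 6.39 TPM up to 48 h and was at 0.53 and 0.77 TPM at 96 h, a log2 difference of -1.92 that is a description because both groups entered the choice of CDH2. CDH4 and CDH8, which were low from the start, were listed at 0 in both libraries at 96 h, with no fold given. CDH4 was called there (adjusted p = 0.000661) and CDH8 was not tested.

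CDH5, CDH6 and CDH11 went up. CDH6 was at 73.7 and 74.6 TPM as early as 12 h, from 15.7 and 9.28 TPM (2.52 ± 0.29, adjusted p = 7.24e-08), and back at 11.0 and 21.8 TPM at 96 h (0.33, adjusted p = 0.391). CDH5 was at 4.38 and 3.47 TPM at 12 h (1.42 ± 0.30, adjusted p = 0.000984) and at 18.0 and 20.2 TPM at 96 h (3.46 ± 0.30, adjusted p = 7.22e-12). CDH6 thus had an early peak, whereas CDH5 was highest at the end. CDH11 was called at 48 h (1.61 ± 0.36, adjusted p = 0.000589) and 96 h (1.59 ± 0.36, adjusted p = 0.000407). CDH10 was higher at 24 h (1.59, adjusted p = 0.0044) and 48 h (1.71, adjusted p = 0.00126) and at 0.49 and 0.11 TPM at 96 h.

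Several of the smaller calls did not hold when 1 library was left out. At 12 h, CDH5 lost its call without DK20FA library 2 (adjusted p = 0.0347) or BLSE library 1 (0.0212). At 24 h, CDH1 lost it without DK20FA library 1 or 2 (0.019 and 0.0325) or BLSE library 2 (0.129), and CDH10 without DK20FA library 1 or 2 (0.0169 and 0.0487) or BLSE library 1 (log2 difference 0.99, adjusted p = 0.148). At 48 h, CDH3 lost it without DK20FA library 1 (0.0428) or BLSE library 2 (0.0225), and CDH10 without DK20FA library 2 (0.0215) or BLSE library 2 (0.0203). At 96 h, CDH4 lost it without DK20FA library 2 (0.0392). Of the 8 endothelial markers tested, 2 were higher at 96 h, and all 6 amnion-like markers tested were higher (median log2 difference 2.84), with sums of 1488 and 1571 against 295 and 485 TPM. Their part in the cadherin values was not tested.

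With enforced SOX17, CDH2 and CDH8 lay above the cjESCs from the first time point, while the cells were still unsorted. These cjESCs had entered the choice of both genes, and CDH8 at 12 h was not called against BLSE cells (0.74, adjusted p = 0.123). Against DK20FA cjESCs, 6 cadherins were called at 12 h and 5 at 24 h of 9, and 5 at 48 h of 8 tested, where 9.82%, 16.8% and 26.3% of all genes were called. The cadherins tested had median log2 differences of 0.66, 1.57 and 0.21, against 0.0081, 0.044 and 0.075 over all genes. CDH2 was at 13.4 and 14.3 TPM at 12 h (1.25 ± 0.19, adjusted p = 1.19e-05), 21.3 and 17.3 TPM at 24 h, and 51.5 and 64.0 TPM at 48 h (3.22 ± 0.19, adjusted p = 1.58e-15). CDH8 was at 3.47 and 3.70 TPM, 11.6 and 11.4 TPM, and 33.7 and 35.2 TPM at the same times. Its duplicates stayed close at each step, and its rise at 24 h was 2.42 ± 0.27 (adjusted p = 1.22e-08). The 48 h value of CDH8 was among the largest of all genes in the earlier account of these data and was not tested.

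CDH10 was called against the cjESCs from 24 h. It was at 2.84 and 1.18 TPM at 12 h (0.66, adjusted p = 0.309) and at 9.61 and 5.96 TPM at 24 h (2.23 ± 0.41, adjusted p = 6.68e-05). At 48 h it was at 20.6 and 25.2 TPM (3.70 ± 0.41, adjusted p = 3.88e-09). CDH6 was at 55.1 and 54.1 TPM at 12 h (2.08 ± 0.29, adjusted p = 1.58e-06) and 47.4 and 61.5 TPM at 24 h (2.07 ± 0.29, adjusted p = 9.6e-07), and was at 18.5 and 20.8 TPM at 48 h. CDH3 was lower at 48 h (-1.01 ± 0.13, adjusted p = 1.75e-07), and CDH1 was lower at 12 h (-0.69 ± 0.19, adjusted p = 0.00755) and 48 h (-0.79 ± 0.19, adjusted p = 0.000895). CDH5 was higher at all of these times, by 1.79, 1.57 and 2.28 (adjusted p = 4.28e-05, 0.000144 and 1.55e-07).

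At 12 h, CDH1 and CDH8 (0.97, adjusted p = 0.00979) lost their calls without any 1 of the 4 libraries, with adjusted p from 0.0227 to 0.0896 for CDH1 and from 0.0337 to 0.0786 for CDH8, and CDH8 was also lost with a replicate block (adjusted p = 0.0104). CDH3 at 12 h (-0.65, adjusted p = 0.000645) lost its call without DK20FA library 1 (0.03) or SOX17 + BLSE library 2 (0.0269), and CDH1 at 48 h without DK20FA library 2 (0.0127) or SOX17 + BLSE library 1 (0.0486).

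The direct comparison with BLSE cells of the same time asked what enforced SOX17, with its inducer, adds to BLSE. CDH2 was the 1 cadherin called of 9 at 12 h, where 2.40% of all genes were called. It was higher by 1.53 ± 0.19 at 12 h (adjusted p = 1.27e-06), 1.49 ± 0.19 at 24 h (adjusted p = 7.88e-07) and 3.54 ± 0.19 at 48 h (adjusted p = 2.79e-16). At 24 h CDH8 joined it, at 11.6 and 11.4 against 2.01 and 2.19 TPM (2.01 ± 0.27, adjusted p = 1.27e-06), giving 2 of 9 where 7.56% of all genes were called. CDH8 stood at 33.7 and 35.2 TPM against 0.59 TPM and 0 at 48 h, untested as above. The SOX17 libraries lay above the BLSE libraries at each of these times for both genes.

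At 48 h, 4 of the 8 cadherins tested were called where 16.7% of all genes were. CDH10 was higher with SOX17, at 20.6 and 25.2 against 4.54 and 5.48 TPM (1.99 ± 0.41, adjusted p = 0.000287). CDH11 was lower, at 4.44 and 3.28 against 16.9 and 18.1 TPM (-1.94 ± 0.36, adjusted p = 6.92e-05). CDH6 was lower, at 18.5 and 20.8 against 43.6 and 74.5 TPM (-1.49 ± 0.29, adjusted p = 0.000134), and lost its call without BLSE library 2 (-1.11, adjusted p = 0.0214), while the calls on CDH2, CDH8, CDH10 and CDH11 in these comparisons held with any library left out. None of the 3 genes overlapped between SOX17 and BLSE cells. CDH1, at 100.4 and 132 against 93.0 and 85.6 TPM, differed by 0.36 (95% interval -0.013 to 0.74, adjusted p = 0.16). In such unsorted samples, fewer cells that hold a transcript and less of it per cell cannot be told apart.

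The median log2 difference of the cadherins tested was -0.017, 0.48 and 0.30 at 12, 24 and 48 h, against 0.047, 0.10 and 0.0995 over all genes. At 24 h a median-ratio scaling of the libraries took the median over all genes from 0.10 to -0.0037. The effect of SOX17 on CDH2 was larger at 48 h than at 12 h, by 2.003 ± 0.27 (adjusted p = 8.51e-06), and CDH2 was the 1 cadherin called of 8 in that test of the difference, where 2.46% of all genes were called. For CDH10 the same difference was 2.01 (adjusted p = 0.0324). The difference for CDH2 held with any library left out.

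**Figure D3:**
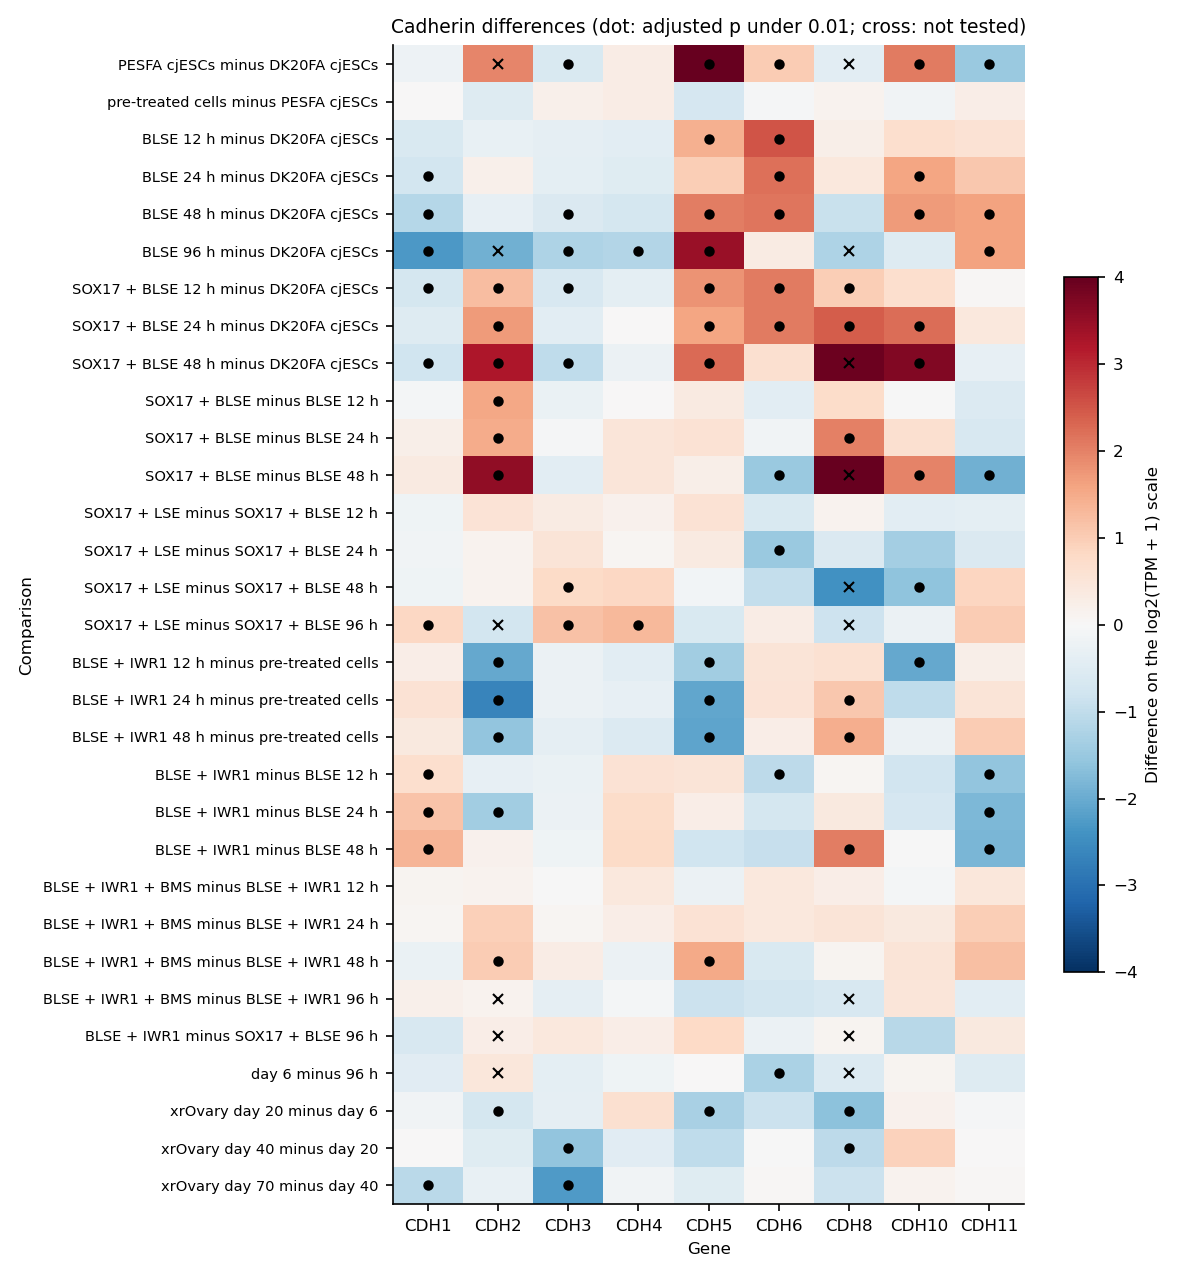
Log2 differences of the 9 cadherins, with genes in columns, in 31 tested comparisons, with the colour scale ending at -4 and 4, a dot where the adjusted p was under 0.01 and a cross where CDH2 or CDH8 was not tested. The comparisons of SOX17 + BLSE with cjESCs or BLSE cells are red for CDH2 and CDH8, and those with IWR1 against pre-treated cells are blue for CDH2 and CDH5.

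Leaving BMP4 out of the SOX17 medium asked which cadherin changes need BMP4. At 12 h limma called 0 of 9 cadherins, where 0.277% of all genes were called, and 3 had an unadjusted p under 0.05. It called 1 of 9 at 24 h, 2 of 8 tested at 48 h and 3 of 7 tested at 96 h, where 2.62%, 8.01% and 7.11% of all genes were called. The median log2 difference over those tested was 0.14, -0.16, 0.017 and 0.82 at the 4 times, against -0.0051, 0.036, -0.0012 and 0.015 over all genes.

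The levels of CDH2 and CDH8 parted in this comparison. CDH2 was at 74.3 and 53.9 TPM without BMP4 at 48 h, against 51.5 and 64.0 TPM with it, and these ranges overlapped. Its difference was 0.14 at 24 h (95% interval -0.25 to 0.53) and 0.14 at 48 h (95% interval -0.26 to 0.53, adjusted p = 0.742). CDH8 was at 5.53 and 5.81 TPM without BMP4 at 48 h, against 33.7 and 35.2 TPM with it, a log2 difference of -2.41. This is a description, since the high CDH8 of the SOX17 + BLSE libraries at 48 h was itself among the values known when CDH8 was chosen. The CDH8 libraries without BMP4 were all below those with it from 24 h, where the difference was -0.58 (adjusted p = 0.291).

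In the sorted cells at 96 h, CDH8 was at 102 and 74.6 TPM without BMP4 and at 156 and 154 TPM with it, a log2 difference of -0.82. CDH2 was at 191 and 167 TPM without BMP4 and at 311 and 284 TPM with it, a log2 difference of -0.73. Neither gene overlapped, and neither was tested, since these libraries had served in choosing CDH2 and CDH8. In the test of whether the effect of leaving out BMP4 differed between 96 h and 48 h, limma called 0 of the 7 other cadherins, where 2.54% of all genes were called, and 4 had an unadjusted p under 0.05. The cells at 96 h were sorted while those at 48 h were not.

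CDH3 was higher without BMP4 at 48 and 96 h, and CDH1 at 96 h. CDH3 was at 326 and 309 against 189 and 185 TPM at 48 h (0.76 ± 0.13, adjusted p = 8.06e-05) and at 219.9 and 191 against 95.5 and 86.7 TPM at 96 h (1.16 ± 0.13, adjusted p = 8.27e-08), without overlap and with both calls held under every left-out library. CDH1 was at 86.4 and 102 against 43.7 and 63.8 TPM at 96 h (0.82 ± 0.19, adjusted p = 0.00221). At 12, 24 and 48 h CDH1 differed by -0.18, -0.16 and -0.17 (adjusted p = 1, 0.801 and 0.667), and at 12 and 24 h CDH3 differed by 0.33 and 0.52 (adjusted p = 0.592 and 0.0139). CDH4 was at 2.03 and 1.34 TPM against 0.15 TPM and 0 (adjusted p = 0.000857). CDH1 lost its call without SOX17 + BLSE library 1 (0.123) or SOX17 + LSE library 2 (0.054), and CDH4 without SOX17 + BLSE library 2 (0.0194) or SOX17 + LSE library 1 (0.0297).

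CDH6 and CDH10 were lower without BMP4 in unsorted cells. CDH6 was at 16.0 and 22.0 against 47.4 and 61.5 TPM at 24 h (-1.48 ± 0.29, adjusted p = 0.000982), and lost its call without SOX17 + BLSE library 2 (0.0359) or SOX17 + LSE library 1 (0.0506). CDH10 was at 6.07 and 7.65 against 20.6 and 25.2 TPM at 48 h (-1.61 ± 0.41, adjusted p = 0.00553), and lost its call without any 1 of the 4 libraries (adjusted p from 0.0238 to 0.0716). Neither gene overlapped between the media at these times. The amnion-like markers summed to 664 and 532 TPM without BMP4 and to 1682 and 1618 TPM with it at 48 h, and their part in CDH6 and CDH10 was not tested.

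**Figure D4:**
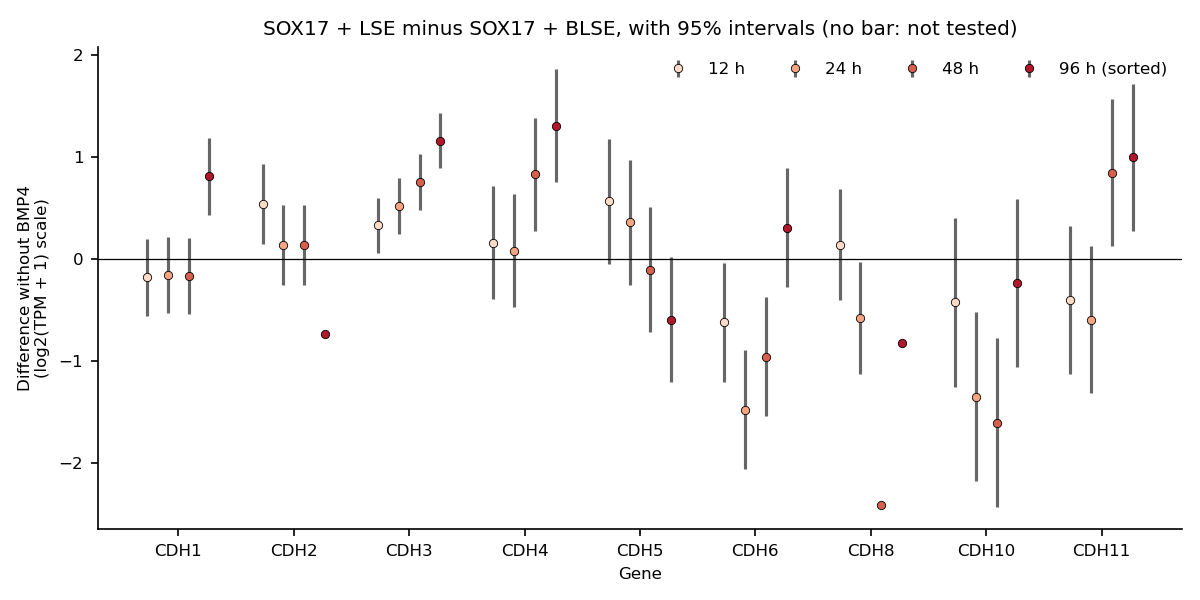
Log2 difference of each cadherin between SOX17 + LSE and SOX17 + BLSE cells at 12, 24, 48 and 96 h (2 libraries per group, 96 h cells sorted). Bars give the 95% interval with the spread pooled over all 54 libraries, and no bar is drawn where a gene was not tested. CDH3 moves up to 1.16 at 96 h, CDH8 is lowest at 48 h with -2.41, and the intervals of CDH2 include 0 at 24 and 48 h.

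In the route without transgenes, CDH2 was lower in unsorted cells up to 48 h than in pre-treated cells and high in sorted cells at 96 h. From pre-treated cells at 14.2 and 18.0 TPM, it was at 4.05 and 2.29 TPM after 12 h of BLSE + IWR1 (-2.06 ± 0.19, adjusted p = 3.86e-10), 1.62 and 1.84 TPM at 24 h (-2.64 ± 0.19, adjusted p = 6.59e-13) and 4.45 and 4.87 TPM at 48 h (-1.59 ± 0.19, adjusted p = 4.98e-08). All of these lay below the pre-treated cells. In sorted cjPGCLCs at 96 h it stood at 369.9 and 339.8 TPM, without a test.

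The number of cadherins called against pre-treated cells was 3 of 9 at each of these times, where 6.79%, 9.46% and 19.2% of all genes were called. Medians of the log2 difference over the 9 were -0.24, -0.23 and -0.24, against 0.018, 0.074 and 0.044 over all genes. CDH5 was lower at 12, 24 and 48 h, with log2 differences of -1.39, -2.08 and -2.11 (adjusted p = 0.00138, 2.61e-06 and 1.07e-06), and at 48 h it was at 2.29 and 4.51 TPM. CDH10 was lower at 12 h, at 0.72 and 0.69 against 2.98 and 11.2 TPM (-2.03 ± 0.41, adjusted p = 0.00054). CDH8 rose a little, to 3.07 and 3.11 TPM at 24 h (1.09 ± 0.27, adjusted p = 0.00361) and 2.67 and 6.38 TPM at 48 h (1.44 ± 0.27, adjusted p = 7.58e-05), from 1.20 and 0.67 TPM.

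CDH2 kept its calls with any library left out, and so did CDH5 at 24 and 48 h. CDH5 at 12 h lost its call without pre-treated library 1 (0.0519) or BLSE + IWR1 library 2 (0.0339), and CDH10 at 12 h without pre-treated library 2 (-1.22, adjusted p = 0.126) or BLSE + IWR1 library 2 (0.0103). CDH8 lost its call at 24 h without pre-treated library 2 (0.098) or BLSE + IWR1 library 1 or 2 (0.0326 and 0.0289), and at 48 h without BLSE + IWR1 library 2 (0.94, adjusted p = 0.0164). Of the 10 mesenchyme markers, 8, 8 and 9 were lower than in pre-treated cells at the 3 times (median log2 differences -2.17, -2.62 and -2.53). The part of such cells in the lower CDH2 and CDH5 was not tested. In a comparison within BLSE + IWR1, chosen after seeing these markers, CDH2 at 48 h against 12 h differed by 0.47 (adjusted p = 0.113), CDH5 by -0.72 (adjusted p = 0.12) and CDH8 by 0.84 (adjusted p = 0.0341).

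Against BLSE cells of the same time, BLSE + IWR1 cells differed in IWR1, in the pre-treatment, in the cjESC medium and in the transgenes, and these cannot be told apart. The count called was 3 of 9 at 12, 24 and 48 h, where 13.8%, 14.6% and 21.2% of all genes were called. Medians of the log2 difference over the 9 were -0.27, -0.24 and -0.022, against 0.0099, 0.081 and 0.027 over all genes. CDH1 was higher, at 236 and 185 against 146 and 118 TPM at 12 h (0.67 ± 0.19, adjusted p = 0.00756) and at 198 and 263 against 93.0 and 85.6 TPM at 48 h (1.34 ± 0.19, adjusted p = 5.53e-07). CDH11 was lower at the 3 times, with log2 differences of -1.57, -1.79 and -1.82 (adjusted p = 0.00116, 0.000223 and 0.000126), and at 48 h it was at 2.35 and 7.11 against 16.9 and 18.1 TPM. CDH1 and CDH11 thus lay in opposite directions at all 3 times, with CDH1 higher by 1.14 at 24 h (adjusted p = 1.18e-05). The 10 mesenchyme markers moved with CDH11, with sums of 494 and 382 against 1673 and 1884 TPM at 12 h and of 409.7 and 449 against 1836 and 2002 TPM at 48 h, and their part in CDH11 was not tested.

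CDH2 was lower at 24 h, at 1.62 and 1.84 against 6.03 and 6.39 TPM (-1.40 ± 0.19, adjusted p = 8.22e-07). CDH6 was lower at 12 h, at 39.9 and 31.5 against 73.7 and 74.6 TPM (-1.04 ± 0.29, adjusted p = 0.00736). CDH8 was higher at 48 h, at 2.67 and 6.38 TPM against 0.59 TPM and 0 (2.05 ± 0.27, adjusted p = 2.3e-07). Neither CDH2 nor CDH6 overlapped between the media there. CDH1 at 12 h lost its call without BLSE library 2 (0.133) or BLSE + IWR1 library 1 (0.134), CDH6 at 12 h without any 1 of the 4 libraries (0.0148 to 0.104), and CDH11 at 12 h without BLSE library 2 (0.0403) or BLSE + IWR1 library 2 (-0.77, adjusted p = 0.195). CDH11 lost its call at 24 h without BLSE library 1 (0.0189) and at 48 h without BLSE + IWR1 library 1 (-1.19, adjusted p = 0.0234).

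With BMS493 added, cadherins were called at 48 h only. limma called 0, 0 and 2 of 9 at 12, 24 and 48 h and 0 of 7 tested at 96 h, where 0%, 0.0893%, 4.83% and 0.732% of all genes were called, and 0, 2, 5 and 3 had an unadjusted p under 0.05. The median log2 difference over those tested was 0.15, 0.41, 0.31 and -0.37, against 0.072, 0.043, 0.032 and -0.062 over all genes. CDH2 was at 10.2 and 10.7 TPM with BMS493 at 48 h and at 4.45 and 4.87 TPM without it (1.02 ± 0.19, adjusted p = 0.000569), a call that held with any library left out but was lost in the fit to only the conditions compared (adjusted p = 0.249). At 24 h CDH2 was at 4.06 and 4.47 against 1.62 and 1.84 TPM (0.95, adjusted p = 0.0142). At 96 h the sorted cells held 396 and 389.6 TPM with BMS493 and 369.9 and 339.8 TPM without it, not tested.

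CDH5 was at 12.9 and 9.57 TPM with BMS493 at 48 h and at 2.29 and 4.51 TPM without it (1.51 ± 0.30, adjusted p = 0.000899). It lost its call without BLSE + IWR1 library 1 (1.14, adjusted p = 0.0387) or BLSE + IWR1 + BMS library 1 (0.029), and in the fit to only the conditions compared (adjusted p = 0.154). At 96 h its order was the opposite, with 9.03 and 9.54 TPM against 17.1 and 17.9 TPM (-0.85, adjusted p = 0.13). The effect of BMS493 on CDH5 differed between 96 h and 48 h by -2.36 ± 0.43 (adjusted p = 0.00106), the 1 cadherin called of 7 tested where 1.15% of all genes were, and lost that call without BLSE + IWR1 library 1 of 48 h (-1.99, adjusted p = 0.0139) and in the fit to only the conditions compared (adjusted p = 0.0806). The 10 endothelial markers summed to 158 and 117 TPM with BMS493 and 81.4 and 139 TPM without it at 48 h, with 2 of 8 tested higher, and the 10 mesenchyme markers to 1250.3 and 1367 against 409.7 and 449 TPM, with 3 of 10 higher. Their part in CDH2 and CDH5 was not tested.

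The sorted cjPGCLCs of the 2 main routes were then set side by side at 96 h. limma called 0 of 7 cadherins tested between BLSE + IWR1 and SOX17 + BLSE, where 6.08% of all genes were called, and 4 had an unadjusted p under 0.05. CDH2 was at 369.9 and 339.8 TPM with BLSE + IWR1 and at 311 and 284 TPM with SOX17 + BLSE, a log2 difference of 0.25. CDH8 was at 177 and 159 against 156 and 154 TPM, a log2 difference of 0.12. The libraries of the 2 routes did not overlap for either gene, and neither was tested, since both routes entered their choice. CDH1 was at 31.2 and 36.4 against 43.7 and 63.8 TPM (-0.63, adjusted p = 0.0214), and CDH3 at 118 and 126 against 95.5 and 86.7 TPM (0.42, adjusted p = 0.0382), which median-ratio scaling took past the threshold (0.45, adjusted p = 0.00868). The median log2 difference was 0.25 over the 7 and -0.038 over all genes.

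From 96 h to day 6, 1 of 7 cadherins tested was called where 2.75% of all genes were. CDH6 was at 0.90 and 1.03 TPM at day 6, from 4.09 and 3.30 TPM (-1.25 ± 0.29, adjusted p = 0.00544), and lost its call without any 1 of the 4 libraries (adjusted p from 0.0308 to 0.0688). CDH2 was at 476 and 492 TPM at day 6 and CDH8 at 115 and 116 TPM, log2 differences of 0.45 and -0.54 that were not tested. The summed cadherin level was 743 TPM in both day 6 libraries, above the 522 and 492 TPM of PESFA cjESCs, where this route began.

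In xrOvary cells, 3 of 9 cadherins were lower at day 20 than at day 6, 2 were lower at day 40 than at day 20 and 2 were lower at day 70 than at day 40, where 20.4%, 4.60% and 2.73% of all genes were called and 13.8%, 3.45% and 1.96% were called lower. Over the 9 cadherins the median log2 difference was -0.35, -0.44 and -0.30, against -0.078, -0.077 and -0.054 over all genes. The cadherins called in these steps were all lower at the later day, namely CDH2, CDH5 and CDH8 at day 20, CDH3 and CDH8 at day 40, and CDH1 and CDH3 at day 70. Since CDH2 and CDH8 were chosen partly for high values at day 6, the count at day 20 is not independent of that choice.

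CDH8 was at 30.7 and 42.5 TPM at day 20 (-1.65 ± 0.27 against day 6, itself used in choosing the gene, adjusted p = 8.83e-06), 19.0 and 14.9 TPM at day 40 (-1.06 ± 0.27 against day 20, adjusted p = 0.00897) and 8.97 and 8.58 TPM at day 70 (-0.87, adjusted p = 0.0526). CDH2 was at 309 and 288 TPM at day 20 (-0.70 ± 0.19 against day 6, where CDH2 was highest and which was also used in choosing it, adjusted p = 0.00554). It was at 208 and 218 TPM at day 40 (-0.49, adjusted p = 0.117) and 171 and 173 TPM at day 70 (-0.30, adjusted p = 0.552). CDH2 remained the cadherin with the highest level at day 70, where CDH2 and CDH8 made up 83.6% and 82.4% of the sum of 216 and 221 TPM. CDH5 was at 5.60 and 7.72 TPM at day 20, from 19.7 and 16.0 TPM (-1.31 ± 0.30, adjusted p = 0.000954).

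CDH3 and CDH1 were lower later. CDH3 was at 59.1 and 86.9 TPM at day 20, 23.7 and 23.5 TPM at day 40 (-1.57 ± 0.13, adjusted p = 1.37e-10) and 3.45 and 4.86 TPM at day 70 (-2.27 ± 0.13, adjusted p = 8.66e-15). CDH1 was at 25.9 and 18.5 TPM at day 20, 23.6 and 21.1 TPM at day 40 and 9.50 and 10.7 TPM at day 70 (-1.07 ± 0.19, adjusted p = 0.000168). CDH10 went the other way in its levels, with 9.40 and 9.27 TPM at day 20, 17.9 and 19.1 TPM at day 40 (0.92, adjusted p = 0.171) and 19.8 and 21.8 TPM at day 70. CDH6 and CDH11 were at most 0.22 and 0.060 TPM in xrOvary cells, with CDH11 listed at 0 at day 20 and day 40.

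The calls on CDH3 and on CDH1 at day 70 held with any library left out, and so did CDH8 at day 20. CDH2 at day 20 lost its call without any 1 of the 4 libraries (adjusted p from 0.0181 to 0.0519), and CDH5 without day 6 library 1 (0.0231) or day 20 library 1 (0.0226). CDH8 at day 40 lost its call without day 20 library 2 (-0.83, adjusted p = 0.161) or day 40 library 1 or 2 (0.0243 and 0.138). Without day 20 library 2, which had the fewest genes above 0, the day 20 differences from day 6 were -0.65 for CDH2, -1.51 for CDH5 and -1.88 for CDH8 (adjusted p = 0.0519, 0.00258 and 4.35e-05), and CDH3 at day 40 was -1.29 (adjusted p = 2.11e-07). The 7 gonadal somatic markers summed to 0.73 to 3.53 TPM in these cells, against 1.37 and 2.77 TPM at day 6. The mesenchyme markers summed to 298 and 268 TPM at day 6, 669 and 739 TPM at day 20 and 144 and 173 TPM at day 70, and the cjPGCLC markers went from 3071 and 3319 TPM at day 6 to 1509.8 and 1552 TPM at day 70. Their part in the cadherin values was not tested.

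**Figure D5:**
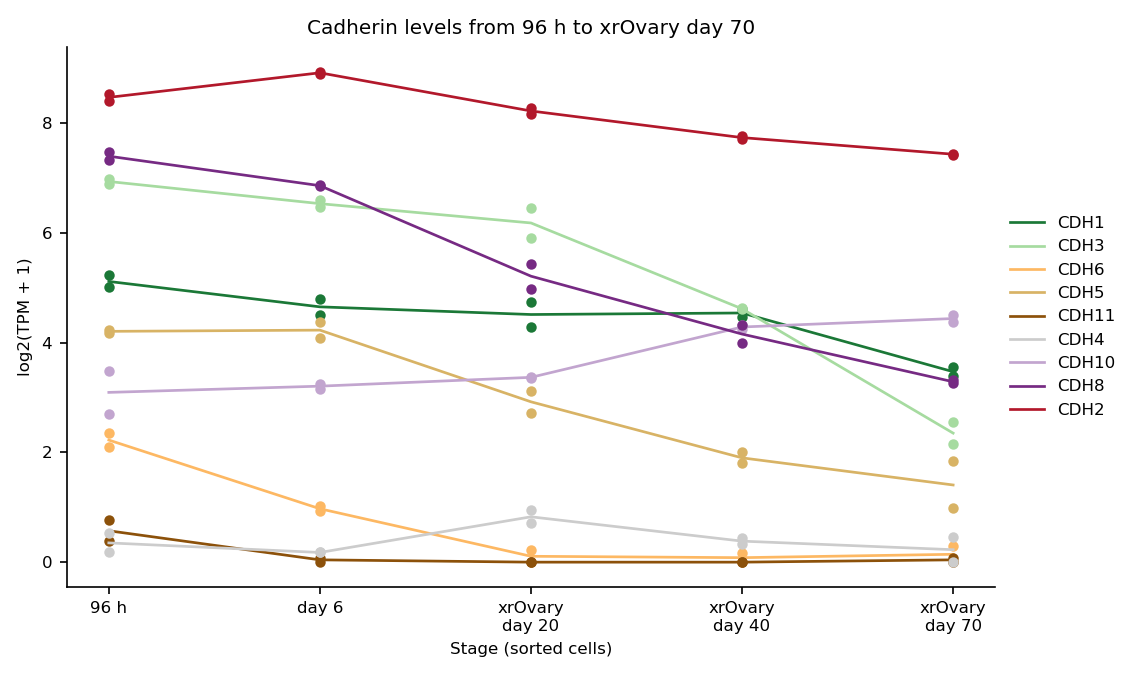
Levels of the 9 cadherins as log2(TPM + 1) in tdTomato(+) cells of the BLSE + IWR1 route at 96 h and day 6 and in xrOvaries at day 20, 40 and 70, with 1 point per library and lines through the means of 2 libraries. CDH3 drops most between day 20 and day 70, from 59.1 and 86.9 to 3.45 and 4.86 TPM, while CDH2 stays at 171 TPM or more.

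Other genes of cell adhesion were read from lists of known members. Of the 17 catenins and adherens junction partners listed, 11 were tested, and at most 4 were called in any comparison. Between SOX17 + BLSE and BLSE cells at 48 h, 1 was higher (the nectin NECTIN2, 0.90) and 2 were lower (α-catenin CTNNA1, -0.93, and the related CTNNAL1, -0.71), with a list median of -0.13 against 0.0995 over all genes. Against DK20FA cjESCs at the same time, 2 were higher and 2 lower: CTNNA1 was lower by 1.18 and VCL, which links catenins to actin, by 1.26, and ARVCF, of the p120 family, and NECTIN2 were higher by 1.07 and 0.55 (list median 0.15 against 0.075). In BLSE cells at 96 h, β-catenin (CTNNB1) was higher by 0.50 and VCL lower by 0.92, and the list median was 0.10 against -0.084 over all genes. In the order of these comparisons, 16.7%, 26.3% and 29.5% of all genes were called.

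The desmosomal cadherins, of which 4 of 7 listed were tested, are the adhesion molecules of desmosomes. In BLSE cells at 96 h, where 29.5% of all genes were called, DSC2 was higher by 1.79 whereas DSG3, DSC3 and DSG2 were lower by 3.51, 1.91 and 1.22, with a list median of -1.56 against -0.084 over all genes. All 4 were lower in PESFA than in DK20FA cjESCs, from -0.80 for DSC2 to -2.66 for DSG3 (list median -1.07 against -0.082), where 16.8% of all genes were called. With SOX17 against BLSE at 48 h, DSG3 was higher by 2.04 and the other 3 were not called (list median 0.36 against 0.0995), where 16.7% of all genes were called.

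Of the E-box repressors, transcription factors known to repress CDH1, 4 of 7 listed were tested. In BLSE cells SNAI1 and TWIST1 were higher at 96 h, by 1.19 and 1.59, where CDH1 was lower (list median 0.86 against -0.084). With SOX17 against BLSE at 48 h, SNAI1 and SNAI2 were lower by 1.26 and 1.55 (list median -0.71 against 0.0995), where CDH1 differed by 0.36 (adjusted p = 0.16). With BLSE + IWR1 against BLSE at 48 h, TWIST1, SNAI2 and SNAI1 were lower by 2.37, 1.83 and 1.36 (list median -1.60 against 0.027), where CDH1 was higher by 1.34. With BMS493 at 48 h, SNAI2 and SNAI1 were higher by 2.24 and 0.99, where CDH1 differed by -0.28 (adjusted p = 0.361). In the order of these comparisons, 29.5%, 16.7%, 21.2% and 4.83% of all genes were called. CDH1 was also low in sorted BLSE + IWR1 cjPGCLCs at 96 h, at 31.2 and 36.4 TPM, for which no values of these factors are given. The part of these factors in the level of CDH1 was not tested.

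Protocadherins, the larger neighbours of the classical family, had 8 of 10 listed genes tested. In SOX17 + BLSE cells at 48 h, 5 were higher than in DK20FA cjESCs (among them PCDH11X by 1.96, PCDH17 by 1.49 and PCDH7 by 1.32) and PCDH20 was lower (-1.82), with a list median of 1.16 against 0.075 over all genes and with 26.3% of all genes called. Of the 14 other CDH genes of the table, 6 were tested, and in BLSE cells at 96 h CDH22 was higher (1.68) while CDH20 and CDH13 were lower (-3.78 and -3.21), with a list median of -0.33 against -0.084. In that comparison 29.5% of all genes were called. Among 7 proteases and γ-secretase parts tested that process cadherins, MMP14 was lower at xrOvary day 20 (-3.16) together with APH1A (-0.50), with a list median of -0.32 against -0.078. There 20.4% of all genes were called, and 13.8% were called lower.

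Across the 27 condition means, Pearson's r between members was 0.87 for CDH2 and CDH8, 0.83 for CDH1 and CDH3, 0.85 for CDH1 and CDH6, and -0.73 for CDH1 and CDH2. CDH2 and CDH8 were both chosen for high levels in the sorted cells, which by itself raises the r between them. CDH2 ran against CDH6 (r = -0.83) and CDH11 (r = -0.79), and CDH8 against CDH11 (r = -0.69). These are descriptions over means that share a cell line, routes and starting cells, and r carries no p here. In the order of protein-coding genes of the RefSeq marmoset assembly calJac240, CDH3 and CDH1 are next to each other, and so are CDH8 and CDH11. In the same order CDH5 follows CDH11 with 1 locus in between. Neighbouring genes were thus a pair with a positive r in the case of CDH1 and CDH3 and a pair with a negative r in the case of CDH8 and CDH11.

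By the same measure over all 11197 genes, the genes most alike included MFSD14A (r = 0.96) and ATP7A (0.95) for CDH2, and EEF1A2 (0.97), PHKA1 and COL23A1 for CDH8. For CDH1 they included EPCAM (0.96) and SOX3 (0.96), and for CDH3 they were WFDC2 (0.96), CHMP2B (0.96) and CKB (0.94). CDH6 was most like FLT1 (0.97), CDH11 most like TRAM2 (0.98), CDH5 most like TIE1 (0.83), CDH10 most like ARF5 (0.85) and CDH4 most like TMEM163 (0.90). Of the 27 genes found by taking 3 for each member, 8 stayed among the 3 most alike when ranked by Spearman's rho.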

How the data were processed

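The authors sequenced poly(A) RNA of 54 libraries with a directional kit and single-end reads, aligned them to a marmoset genome with STAR and estimated expression with RSEM. They deposited TPM, a level scaled per library and corrected for transcript length, for 14812 genes. TPM keeps no read depth, so no counting interval could be given. Of the columns with values per sample, 0 were left unused.

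From these values log2(TPM + 1) was computed, genes that reached 1.5 on this scale in at least 1 library were kept (11197), and means of the 27 conditions were fitted with limma 3.58.1 in R 4.3.3 with an intensity trend (27 residual degrees of freedom). P values were adjusted over all 11197 genes by Benjamini and Hochberg, and an adjusted p under 0.01 was called. In all, 34 contrasts gave 286 tests of cadherins, and 9 contrasts were described only. CDH2 and CDH8 were left untested where both groups had entered their choice, and CDH8 also with SOX17 + BLSE at 48 h. The members, lists and comparisons were chosen with earlier results of these data known. All tested cadherins were named, and from lists at most the 4 called genes with the largest differences, besides the 3 genes most alike each member, of which some are not reported here. The fit was tested on simulated data for SOX17 + LSE against SOX17 + BLSE at 48 h over 10034 genes. There it called 196 of 200 genes changed by 2 on the log2 scale and 1 of 9834 unchanged genes. The changed genes were drawn only from genes with higher mean levels, and the noise was normal. How often the fit finds smaller differences, or changes in genes at low levels, was thus not tested. Alternatives were another pseudocount, no filter, only the conditions compared, a replicate block, median-ratio scaling, quantile normalisation, no trend and each library left out. Genes were placed with RefSeq's order of protein-coding genes, 9 of 9 matched by gene ID. Figures were drawn with matplotlib 3.10.9 in Python 3.11.15.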

Additional observations from a re-analysis of the deposited data

Results flagged for a closer look

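The effect of enforced SOX17 on CDH2, against BLSE cells of the same time, differed between 48 h and 12 h by 2.003 ± 0.27 on the log2 scale by a test of the difference itself (limma, adjusted p = 8.51e-06). CDH2 was higher with SOX17 in both libraries at each time. Leaving out any 1 of the 8 libraries moved this value between 1.85 and 2.16.

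The effect of BMS493 on CDH5 differed between 96 h and 48 h by -2.36 ± 0.43 (limma, adjusted p = 0.00106), where both BMS493 libraries were above the others at 48 h and both were below them at 96 h, with unsorted cells at 48 h and sorted cells at 96 h. Without BLSE + IWR1 library 1 of 48 h it was -1.99 (adjusted p = 0.0139).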

How the results depend on the processing

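Of the 80 called cadherin differences, 45 kept their call under another pseudocount, no filter, a replicate block, both scalings, no trend and each left-out library. None changed direction under these or in the fit to only the conditions compared. Calls lost numbered 14 with a pseudocount of 0.1, 7 without the filter, 4 with quantile normalisation, 3 without the trend, 2 with median-ratio scaling and 16 of 79 in the fit to only the conditions compared. The replicate numbers did not pair the libraries (correlations of deviations between same-numbered libraries -0.271 to 0.289, median 0.009, over 0.1 in 41 of 351 pairs of conditions), and a replicate block lost 1 call, CDH8 in SOX17 + BLSE cells at 12 h against cjESCs (adjusted p = 0.0104), taking the calls in that course from 16 to 15.

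Calls between the cjESC media with the pre-treatment went from 5 to 2 and those with BMS493 from 2 to 0 in the fit to only the conditions compared. Those with IWR1 against BLSE went from 9 to 5 with a pseudocount of 0.1, those between routes at 96 h from 0 to 1 with median-ratio scaling, and those from 96 h through the xrOvaries from 8 to 5 with quantile normalisation. Spearman's rho kept 8 of the 27 genes most alike. Leaving out each library gave 2 to 5 calls between the media (5 in full), 11 to 17 in the BLSE course (16), 13 to 15 in the SOX17 + BLSE course (16), 6 to 7 with SOX17 against BLSE (7), 5 to 6 without BMP4 (6), 7 to 10 in the BLSE + IWR1 course (9), 6 to 10 with IWR1 against BLSE (9), 1 to 4 with BMS493 (2), 0 to 1 between routes (0), 4 to 7 from 96 h through the xrOvaries (8) and 1 to 4 differences between contrasts (2). The cause was not tested.

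The values that changed sign with median-ratio scaling or quantile normalisation were uncalled. With both they were CDH1 in pre-treated cells (-0.016 and -0.021), CDH4 in SOX17 + BLSE cells at 24 h against cjESCs (-0.026 and -0.085) and at 12 h against BLSE (-0.011 and -0.045), and CDH10 in the difference of the BMS493 effect (0.091 and 0.092). With quantile normalisation alone they were CDH11 at xrOvary day 20 and day 40 (0.13 and -0.18) and in the difference of the BMP4 effect (-0.024), and CDH6 in the difference of the BMS493 effect (0.097). CDH10 in BLSE + IWR1 cjPGCLCs against PESFA cjESCs, untested, was -0.080 with median-ratio scaling. In the comparison of 48 h with 12 h of BLSE + IWR1, added after seeing the data and not among the settings counted above, the called difference of CDH2 (-1.59) changed sign to 0.47 (adjusted p = 0.113), CDH6 was -0.25 and CDH10 1.79 (adjusted p = 0.00241), and CDH5 (-0.72, adjusted p = 0.12) and CDH8 (0.84, adjusted p = 0.0341) lost their calls.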
